A study of Mus musculus with 10 samples.

Results

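The genes described here are 10 enzymes of serine, asparagine and one-carbon metabolism, Asns, Phgdh, Psat1, Psph, Shmt1, Shmt2, Mthfd1, Mthfd2, Mthfd1l and Aldh1l2, chosen by their gene symbol from the 47340 genes of the expression table. They were followed in pancreatic islets of 12-week-old male mice on chow, of which 5 libraries came from floxed controls (FL) and 5 from βFIT2KO mice (KO). FL mice carry Fitm2 fl/fl alleles without Cre, although the sample labels call their genotype wild type. KO mice carry the same Fitm2 fl/fl alleles with a rat insulin promoter Cre transgene, B6.Cg-Tg(Ins2-cre)25Mgn/J, which deletes Fitm2, the gene of the lipid droplet protein FIT2, in β cells. Islets with Cre alone were not analysed here, so the transgene and the deletion cannot be told apart, and the other cell types of the islet keep the floxed alleles. Islets were left overnight in CMRL medium before polyadenylated RNA was sequenced. Values are FPKM, fragments scaled by transcript length and by the mapped fragments of the library, so levels can be compared between genes. Each group held 5 mice, as many as it has libraries. Fitm2 itself was at 23.3 ± 9.86 FPKM in FL against 6.95 ± 2.36 FPKM in KO (SD, n = 5 each), with every KO library below every FL library.

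Serine is made from the glycolytic intermediate 3-phosphoglycerate by Phgdh, which oxidises it, Psat1, which adds the amino group from glutamate, and Psph, which removes the phosphate. The serine hydroxymethyltransferases Shmt1 in the cytosol and Shmt2 in mitochondria split serine into glycine and a one-carbon unit carried on tetrahydrofolate. In mitochondria Mthfd2 oxidises that unit, and Mthfd1l releases it as formate or Aldh1l2 burns it to carbon dioxide with production of NADPH, while in the cytosol Mthfd1 takes formate up again for the synthesis of purines and thymidylate. Asns makes asparagine from aspartate and glutamine. The genes of Asns, Phgdh, Psat1, Shmt2 and Mthfd2 are known to be switched on by the transcription factor ATF4 when amino acids are short or the endoplasmic reticulum is under stress.

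Of the 10 enzymes, 5 were lower in KO and 0 were higher at an adjusted p of at most 0.05 (limma, Benjamini-Hochberg over all tested genes), where 16.5% of the 13065 tested genes were lower and 9.05% were higher. The lower ones were Mthfd2, Asns, Psat1, Mthfd1 and Shmt2. In Mthfd2, Asns and Psat1 all 5 KO libraries lay below all 5 FL libraries, as they did in 12.5% of tested genes, and no enzyme had all KO libraries above all FL libraries, as 6.67% of tested genes did. At an adjusted p of at most 0.01 Mthfd2 and Asns remained, where 7.99% of tested genes were lower. None of the 10 differed by 1.5-fold, as 4.89% of tested genes did in one direction or the other while also passing the test. Each of the 10 was tested, since all averaged 1 FPKM or more in one of the groups. Their median log2 fold change was −0.22, beside −0.06 over all tested genes, and 8 of the 10 values were below 0, as were 61.9% of all. The 10 enzymes were chosen with earlier results of these data known, so these counts beside the shares of all genes are a description. No test was run over the list.

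The start regions of the 3 enzymes whose libraries did not overlap are shown here as RefSeq gives them (GRCm38.p6), each running 5′ to 3′ on the gene's strand from 250 bases before the annotated start to 50 bases after it. Capitals mark the letters TGATGNAA, the core of the C/EBP-ATF response element through which ATF4 acts, and the letters CCAAT, both read on either strand. The windows are chr6:7693160-7693459 for Asns, chr6:83317555-83317854 for Mthfd2 and chr19:15925010-15925309 for Psat1, all on the minus strand.
Asns: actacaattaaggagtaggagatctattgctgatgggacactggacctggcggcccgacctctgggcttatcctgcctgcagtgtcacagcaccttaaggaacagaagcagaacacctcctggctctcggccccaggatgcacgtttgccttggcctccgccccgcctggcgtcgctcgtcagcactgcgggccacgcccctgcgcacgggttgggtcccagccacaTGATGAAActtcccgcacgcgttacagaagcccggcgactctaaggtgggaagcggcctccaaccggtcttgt
Mthfd2: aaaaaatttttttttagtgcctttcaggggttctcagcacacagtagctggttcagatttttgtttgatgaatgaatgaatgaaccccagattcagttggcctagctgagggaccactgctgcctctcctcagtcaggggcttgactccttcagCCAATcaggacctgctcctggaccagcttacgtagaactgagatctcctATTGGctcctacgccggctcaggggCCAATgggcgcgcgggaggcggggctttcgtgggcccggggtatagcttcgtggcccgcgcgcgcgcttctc
Psat1: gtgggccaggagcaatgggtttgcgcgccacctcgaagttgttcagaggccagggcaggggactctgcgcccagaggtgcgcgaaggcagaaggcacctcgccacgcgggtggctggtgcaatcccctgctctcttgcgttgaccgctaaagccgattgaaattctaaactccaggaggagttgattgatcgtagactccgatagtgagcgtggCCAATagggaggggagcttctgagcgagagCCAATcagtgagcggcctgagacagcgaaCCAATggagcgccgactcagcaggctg

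A window was found for 9 of the 10 enzymes, with a pair of windows for Psat1. Aldh1l2 has no entry in the set of windows used here. Among these windows the letters TGATGNAA stood only in that of Asns, as TGATGAAA from 23 to 16 bases before the RefSeq start (chr6:7693225-7693232). They were in 3.97% of the 32851 windows of all genes and in 2.15% of the 12441 windows of the genes tested. GENCODE places the first base of Asns upstream of the RefSeq start, so this match lies inside the span GENCODE gives the gene. The printed windows of Mthfd2 and Psat1 lie wholly inside the GENCODE spans of their genes (chr6:83305691-83325908 and chr19:15904678-15947337). The letters CCAAT, searched for after these windows had been read, stood in windows of 6 of the 9 enzymes, in 37.4% of all windows and in 37.1% of those of tested genes. Mthfd2 held 3 of them and so did the printed Psat1 window, while the Asns, Shmt2 and Mthfd1l windows held none. The E-box letters CACGTG were in none of the windows of these enzymes, in 7.15% of all windows and in 9.93% of those of tested genes. These matches describe the letters of the windows, not binding.

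**Figure D1:**
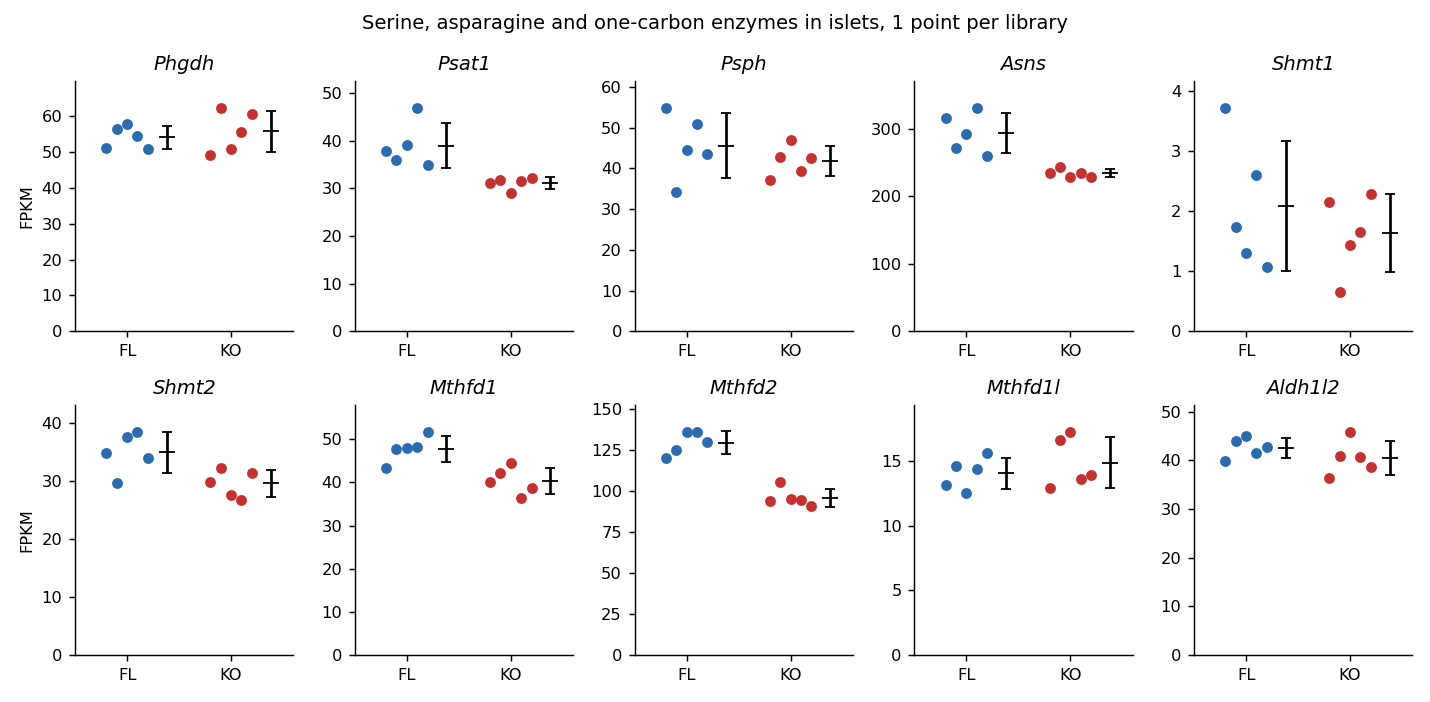
FPKM of each enzyme in each of the 5 FL (blue) and 5 KO (red) libraries, drawn in the order of their replicate numbers, with the mean ± SD in black; each panel has its own axis from 0. In Psat1, Asns and Mthfd2 the red points all lie below the blue points, and in Phgdh, Psph and Mthfd1l the 2 groups overlap over most of their range.

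Among the enzymes that make serine, the middle step fell and the steps on either side did not pass the test. Psat1, phosphoserine aminotransferase (chr19:15904678-15947337), was at 37.8, 36.0, 39.2, 46.9 and 34.8 FPKM in FL libraries 1 to 5 and at 31.1, 31.7, 29.0, 31.4 and 32.2 FPKM in KO libraries 1 to 5. The highest KO library stayed below the lowest FL library, and FL library 4 was the highest of all. Psat1 was 20.2% lower in KO by its means, with a log2 fold change of −0.31 (SE 0.07, 95% interval −0.47 to −0.15, limma adjusted p = 0.0116).

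Phgdh, phosphoglycerate dehydrogenase (chr3:98313170-98339990), was at 51.0, 56.5, 57.8, 54.6 and 50.8 FPKM in FL, compared with 49.3, 62.3, 50.9, 55.6 and 60.6 FPKM in KO. The groups overlapped, with KO library 1 below all FL libraries and KO libraries 2 and 5 above them. The log2 fold change was 0.04, with an interval of −0.12 to 0.20 that does not reach the fall of Psat1 (limma adjusted p = 0.746). Psph, phosphoserine phosphatase (chr5:129765558-129787449), was at 54.9, 34.2, 44.6, 50.9 and 43.6 FPKM in FL, compared with 37.3, 42.9, 47.0, 39.3 and 42.5 FPKM in KO. FL library 2 was the lowest of all 10 and FL library 1 the highest, so that the FL group enclosed the KO group. The log2 fold change of Psph was −0.11 (−0.36 to 0.14, limma adjusted p = 0.516), an interval that includes a fall as large as that of Psat1. Exons of Psph share 452 bases with Cct6a, a chaperonin subunit on the other strand at 133 FPKM in both FL and KO, and the sources do not say whether strand was used in counting.

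Asns, asparagine synthetase (chr6:7675169-7693254), was the most abundant of the 10 enzymes and stood above 97.7% of tested genes in FL. It was at 315.7, 271.2, 291.8, 330.6 and 259.1 FPKM in FL, compared with 234.9, 243.3, 228.3, 234.8 and 228.7 FPKM in KO. The KO libraries lay close together, with a coefficient of variation of 2.60% against 10.1% in FL, and all were below the lowest FL library. Asns was 20.3% lower in KO, with a log2 fold change of −0.32 (SE 0.07, 95% interval −0.47 to −0.17, limma adjusted p = 0.00558).

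Of the mitochondrial one-carbon enzymes, Mthfd2 changed most and the enzymes that follow it did not pass the test. Mthfd2, methylenetetrahydrofolate dehydrogenase and cyclohydrolase (chr6:83305691-83325908), was at 119.9, 124.9, 136.0, 136.2 and 129.5 FPKM in FL, compared with 93.7, 105.2, 94.8, 94.6 and 90.6 FPKM in KO. The gap between the lowest FL and the highest KO library was wider than the SD of either group. Mthfd2 was 25.9% lower in KO, with a log2 fold change of −0.43 (SE 0.05, 95% interval −0.55 to −0.31, limma adjusted p = 0.00026), and ranked 390 of 13065 genes by p.

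Shmt2, the mitochondrial serine hydroxymethyltransferase (chr10:127517123-127522444), was at 34.95, 29.7, 37.7, 38.6 and 34.1 FPKM in FL, compared with 29.8, 32.4, 27.7, 26.8 and 31.4 FPKM in KO. FL library 2 lay among the KO libraries, and the other 4 FL libraries lay above all of KO. Its log2 fold change was −0.23 (SE 0.08, 95% interval −0.40 to −0.06) with a limma adjusted p of 0.0493, just inside the threshold. That call was lost under each of the 4 rescalings tried (limma adjusted p from 0.104 to 0.118), with no filter on low values (0.0839), with limma fitted without a trend (0.0567), and when any single library other than FL 2 or KO 2 was left out (0.0557 to 0.115). It was also lost with the replicate number as a block (limma adjusted p = 0.141).

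Mthfd1l, the mitochondrial formate-tetrahydrofolate ligase (chr10:3973118-4167081), was at 13.2, 14.6, 12.6, 14.4 and 15.6 FPKM in FL, compared with 12.9, 16.7, 17.3, 13.6 and 13.9 FPKM in KO. KO libraries 2 and 3 were above all FL libraries and the other 3 were within the FL range (log2 fold change 0.07, interval −0.12 to 0.26, limma adjusted p = 0.595). Aldh1l2, mitochondrial formyltetrahydrofolate dehydrogenase (chr10:83487450-83534140), was at 39.9, 43.9, 45.0, 41.4 and 42.6 FPKM in FL, compared with 36.4, 40.9, 45.9, 40.8 and 38.5 FPKM in KO. The groups overlapped, with a log2 fold change of −0.07 (−0.21 to 0.07, limma adjusted p = 0.434). Exons of Aldh1l2 share 1056 bases with D10Wsu102e, a gene on the other strand at 9.92 ± 0.136 FPKM in FL against 11.1 ± 0.383 FPKM in KO (SD, n = 5).

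In the cytosol, Mthfd1, which joins formate to tetrahydrofolate and reduces the product (chr12:76255298-76319803), was at 43.3, 47.7, 48.0, 48.2 and 51.8 FPKM in FL, compared with 40.0, 42.2, 44.4, 36.4 and 38.7 FPKM in KO. FL library 1 was below KO library 3, and otherwise the groups were apart. The log2 fold change was −0.24 (SE 0.06, 95% interval −0.38 to −0.10, limma adjusted p = 0.0179), a difference of 15.6% between the means. With the replicate number as a block, Mthfd1 was not called (limma adjusted p = 0.0505). Shmt1, the cytosolic serine hydroxymethyltransferase (chr11:60788104-60811718), was the least abundant of the 10 at 3.71, 1.74, 1.30, 2.60 and 1.07 FPKM in FL, compared with 2.14, 0.645, 1.44, 1.65 and 2.28 FPKM in KO. Its libraries varied by 52.0% of the mean in FL and 39.9% in KO. Its exons share 184 bases with Smcr8, a gene on the other strand at 14.4 ± 0.393 FPKM in FL. The interval of the log2 fold change of Shmt1, −0.75 to 0.34, includes falls larger than that of Mthfd2 (limma adjusted p = 0.589).

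**Figure D2:**
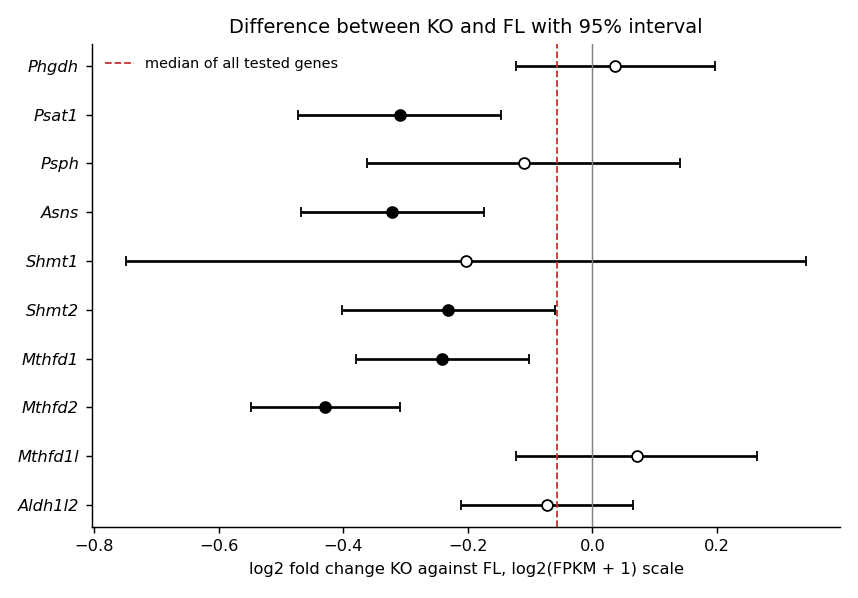
Log2 fold change of KO against FL for each enzyme on the log2(FPKM + 1) scale, with its 95% interval from limma; filled points passed an adjusted p of 0.05 and the dashed line is the median of all tested genes (−0.06). Mthfd2, Asns and Psat1 lie furthest to the left, and Shmt1 has the widest interval.

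In order of level, Asns stood above Mthfd2 and Mthfd2 above Phgdh in FL with no overlap between libraries. Phgdh, Mthfd1, Psph, Aldh1l2, Psat1 and Shmt2 followed, from 54.2 ± 3.16 to 35.004 ± 3.50 FPKM (SD, n = 5), and each overlapped with the next in that order. Mthfd1l at 14.1 ± 1.21 FPKM and Shmt1 at 2.08 ± 1.08 FPKM were each apart from the gene above. In KO, Phgdh at 55.7 ± 5.77 FPKM stood above Psph without overlap, and Mthfd1 at 40.3 ± 3.10 FPKM stood above Psat1 at 31.1 ± 1.21 FPKM without overlap. The highest FL value came from library 4 in 4 of the enzymes and the lowest from library 5 in 4, and in KO the highest came from library 2 or 3 in 4 each.

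Ratios taken within a library do not depend on how libraries are scaled, and they are given as a description with no test. Each sets a gene whose groups did not overlap over a gene that did not pass the test, so separation of a ratio is not separate evidence. The ratio of Psat1 to Phgdh was 0.742, 0.637, 0.678, 0.859 and 0.684 in FL and 0.631, 0.509, 0.570, 0.565 and 0.530 in KO. The groups met without crossing, FL library 2 and KO library 1 being the nearest to each other. The ratio of Asns to Phgdh was 5.44 ± 0.637 in FL and 4.23 ± 0.410 in KO (SD, n = 5), again without overlap, with a narrow gap between 4.80 and 4.77. The ratio of Psat1 to Psph overlapped, at 0.868 ± 0.136 in FL and 0.749 ± 0.0824 in KO.

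For the mitochondrial arm, the ratio of Mthfd2 to Aldh1l2 was 3.01, 2.84, 3.02, 3.29 and 3.04 in FL and 2.58, 2.57, 2.06, 2.32 and 2.35 in KO. The ratio of Mthfd2 to Mthfd1l was 9.24 ± 0.993 in FL and 6.49 ± 0.682 in KO (SD, n = 5). Neither ratio overlapped between the groups. Mthfd2l, the paralogue of Mthfd2 in mitochondria, was at 6.998 ± 1.49 FPKM in FL against 5.70 ± 0.687 FPKM in KO (limma adjusted p = 0.156), and the ratio of Mthfd2 to Mthfd2l overlapped at 19.0 ± 3.26 in FL and 17.1 ± 3.24 in KO.

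**Figure D3:**
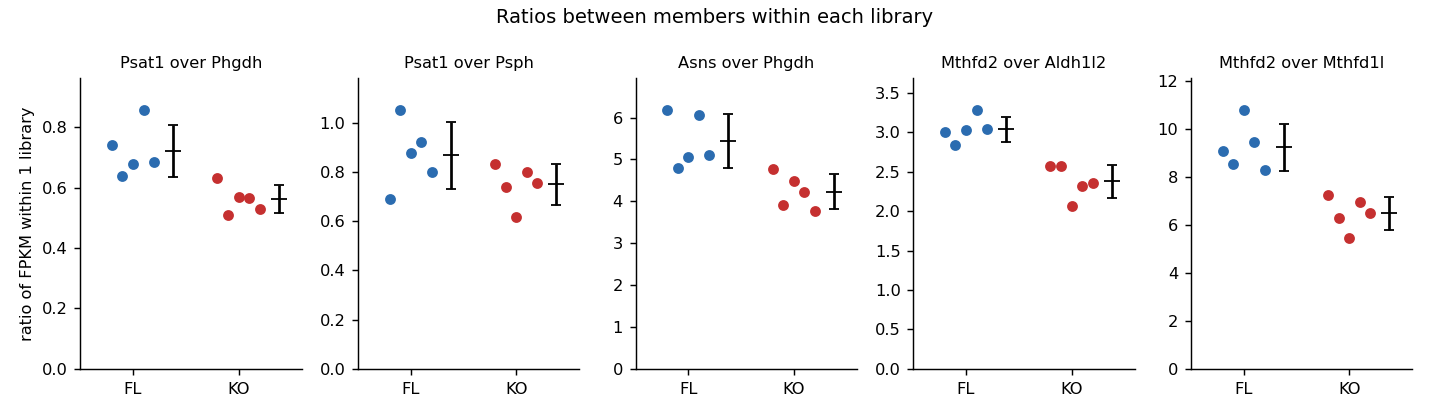
Ratios of FPKM between pairs of the enzymes within each of the 5 FL (blue) and 5 KO (red) libraries, in replicate order, with the mean ± SD in black and axes from 0. The groups do not overlap except in the ratio of Psat1 to Psph.

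The tissue of origin was described by marker genes of its cell types. Of 7 β cell markers, 5 were lower in KO, and the summed level of all 7 ran from 2276 to 2816 FPKM in FL and from 1639 to 2235 FPKM in KO. The glucose transporter Slc2a2 was at 245 ± 34.5 FPKM in FL against 151 ± 25.0 FPKM in KO, and the zinc transporter Slc30a8 at 303 ± 21.2 and 179 ± 18.5 FPKM (SD, n = 5). The peptide Ucn3 was at 315 ± 33.1 and 209 ± 34.4 FPKM and the transcription factor Nkx6-1 at 108 ± 5.597 and 76.0 ± 3.99 FPKM. The fifth, named after its values were seen, was Pdx1. The other two are also named after their values were seen. G6pc2 stood at 1188 ± 145 FPKM in FL against 998 ± 171 FPKM in KO (limma adjusted p = 0.136). Pcsk1, a convertase that cleaves proinsulin, stood at 188 ± 20.5 FPKM in FL against 224 ± 30.7 FPKM in KO, with 4 of the 5 FL libraries below all KO libraries (limma adjusted p = 0.0910). The number of β cell markers called higher in KO was 0, and it was 1 without FL library 4, without KO library 5, with sample weights, and under median-ratio, upper-quartile or quantile scaling. The insulin genes and the glucagon gene Gcg are listed at 0 in all 10 libraries and could not be used, since a listed 0 can be a failed estimate. In bulk islets, fewer cells of a type and less RNA per cell cannot be told apart.

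Of 4 tested α cell markers 1 was lower, the thyroid hormone carrier Ttr (summed levels of 430 to 644 FPKM in FL and 285 to 425 FPKM in KO for the 5 listed), and of 3 δ cell markers 1 was lower (4958 to 5850 and 3991 to 5337 FPKM). Without FL library 2 or KO library 5, 2 α cell markers were lower, and the δ cell call, that of Sst, named after its values were seen, was lost without FL library 1, 3, 4 or 5 or KO library 1 or 4. Across all alternatives, 0 to 3 α cell markers and 0 to 2 δ cell markers were lower. Of 5 tested ductal markers 1 was higher, the chloride channel Cftr at 0.0372 ± 0.0177 and 2.13 ± 0.315 FPKM, and 1 was lower, the keratin Krt7 at 451 ± 34.9 and 356 ± 26.0 FPKM (SD, n = 5), with 2 higher without KO library 3. Summed β and α marker levels did not overlap between the groups.

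Of 6 macrophage markers, 2 were higher in KO, Lyz2 and Cd68, with sums of 119 to 145 FPKM in FL and 172 to 207 FPKM in KO. Of 5 endothelial markers 3 were higher, Cdh5, Pecam1 and, named after its values were seen, Plvap (sums of 121 to 139 and 144 to 190 FPKM), and 5 were under each of the 4 rescalings. Pecam1 reached a limma adjusted p of 0.0594 among the alternatives, past the threshold of 0.05. All 5 tested of 6 stellate and fibroblast markers were higher, Col3a1 most (sums of 12.1 to 20.6 and 24.6 to 33.7 FPKM), but 3 without KO library 1. Pdgfrb was at 4.39 ± 0.451 and 6.54 ± 0.957 FPKM, and Col1a2, at 1.501 ± 0.411 and 2.46 ± 0.391 FPKM, was the named gene not called without KO library 1 (limma adjusted p = 0.053). Of 12 acinar markers none passed, though all 12 had a log2 fold change below 0 (median −0.33), as did 61.9% of all tested genes. Their sums ran from 4303 to 11522 FPKM in FL and from 2853 to 21217 FPKM in KO, where library 5 stood apart. Without KO library 5, Mthfd2, Asns, Psat1 and Mthfd1 stayed lower and Shmt2 did not pass (limma adjusted p = 0.0557). The part of these cell types in the differences of the 10 enzymes was not tested.

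The other genes of the pathway were read from lists of neighbouring steps. Of 9 tested genes of serine and glycine breakdown, 1 was higher and 2 were lower, none with separate groups. None was higher without FL library 1 or 3 or KO library 2, 3 or 4, while 1 was lower without FL library 2 or KO library 2 or 5 and none without FL library 3, 4 or 5 or KO library 1 or 4. Across all alternatives, 0 to 2 were higher and 0 to 3 lower. The genes that passed in the reported fit are named here after their values were seen. Amt, a subunit of the glycine cleavage system, was at 7.57 ± 0.671 FPKM in FL against 9.15 ± 0.755 FPKM in KO, and Gcat, which breaks down threonine to glycine, was at 60.5 ± 4.83 and 47.7 ± 7.52 FPKM (SD, n = 5). Grhpr, glyoxylate reductase, was at 29.9 ± 1.84 and 25.2 ± 3.02 FPKM. Gldc, the glycine decarboxylase, was at 0.124 ± 0.103 and 0.293 ± 0.123 FPKM, too low to be tested.

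A list of folate enzymes and carriers beyond the 10 held 18 tested genes, among them Gphn and Mocs1 of molybdenum cofactor synthesis and Pcbd1 and Qdpr of biopterin recycling. In it 1 was higher and 2 were lower. None was higher without FL library 1, 2, 3 or 5 or KO library 1, 2 or 4, and 4 were lower without KO library 2. The higher gene, named after its values were seen, was Mthfsl, related to the enzyme that recycles formyltetrahydrofolate. Folr1, a folate receptor, was at 41.3 ± 10.1 FPKM in FL against 24.9 ± 3.61 FPKM in KO (log2 fold change −0.69, limma adjusted p = 0.00678). Pcbd1, which recycles the biopterin cofactor, was at 179 ± 5.13 and 147 ± 6.70 FPKM, and neither gene's groups overlapped. The partner enzymes named next did not pass the test. Tyms, thymidylate synthase, was at 11.6 ± 1.14 and 11.04 ± 2.01 FPKM, and Aldh1l1, the cytosolic counterpart of Aldh1l2, at 4.20 ± 1.27 and 4.52 ± 1.18 FPKM. Slc25a32, the mitochondrial folate carrier, was at 8.12 ± 1.20 and 7.27 ± 0.957 FPKM (adjusted p from 0.36 to 0.781 over these 3 genes, limma).

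Purine synthesis takes one-carbon units from formyltetrahydrofolate, and of its 13 tested enzymes 4 were lower and 1 was higher (median log2 fold change −0.15). None was higher without FL library 1, 2 or 3 or KO library 1, 2 or 4, and 2 were under each of the 4 rescalings. Ppat, which catalyses the first committed step, was at 18.4 ± 1.01 FPKM in FL against 12.9 ± 0.905 FPKM in KO, a log2 fold change of −0.48 (limma adjusted p = 0.000164). Prps1, which makes the ribose donor, was at 131 ± 8.90 and 101.95 ± 9.03 FPKM, and Adssl1, an adenylosuccinate synthase, at 4.89 ± 0.792 and 3.23 ± 0.273 FPKM. The libraries of these 3 genes did not overlap between the groups. Gmps was the fourth lower gene and Impdh2 the higher one, both of guanine nucleotide synthesis and named after their values were seen.

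In the methionine cycle with its cofactor and salvage branches and in transsulfuration, 2 of 21 tested genes were lower and 1 was higher. Cbs, which joins serine and homocysteine to cystathionine, was at 35.2 to 50.9 FPKM in FL and 15.0 to 21.6 FPKM in KO. Its difference, −1.12 on the log2 scale (SE 0.11, limma adjusted p = 5.02e-05) was larger than that of any of the 10 enzymes. Enoph1, of the methionine salvage pathway, was at 18.5 ± 0.449 and 15.5 ± 0.594 FPKM, and Mpst, a mercaptopyruvate sulfurtransferase, at 10.96 ± 0.981 and 13.3 ± 0.887 FPKM (SD, n = 5), each without overlap.

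Asns uses glutamine and aspartate, and of 14 tested genes for these amino acids and asparagine 1 was lower and 1 higher, and 2 were lower without FL library 1, 2, 3 or 5 or KO library 3. Glul, glutamine synthetase, was at 694 ± 45.7 FPKM in FL against 409 ± 44.5 FPKM in KO, a log2 fold change of −0.77 (limma adjusted p = 4.38e-05) with no overlap. Gpt, alanine aminotransferase, was at 1.65 ± 0.184 and 2.17 ± 0.226 FPKM, and its call (limma adjusted p = 0.0379) was lost without FL library 2, 3, 4 or 5 or KO library 2, 3 or 5 (0.0525 to 0.0822), with no filter on low values (0.0567) and with quantile normalization (0.082). The Gpt call was also lost with the replicate number as a block (limma adjusted p = 0.121). Asnsd1, a gene related to Asns, was at 38.6 ± 3.37 and 41.8 ± 3.47 FPKM (limma adjusted p = 0.28). In proline synthesis 2 of 5 tested genes were higher, of which Oat, ornithine aminotransferase, went from 5.97 ± 0.704 to 12.4 ± 1.34 FPKM without overlap. The other, Pycr1, was named after its values were seen.

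Among 23 genes of cytosolic aminoacyl-tRNA synthetases and of 3 proteins of their complex that charge no tRNA (Aimp1, Aimp2 and Eef1e1), 4 were lower and 3 were higher, and 1 was higher without FL library 1 or 5 or KO library 2, 3 or 4. Mars, which charges methionine, was at 107 ± 6.35 FPKM in FL against 75.2 ± 7.24 FPKM in KO, and Hars, which charges histidine, at 31.5 ± 0.726 and 39.6 ± 1.75 FPKM (SD, n = 5). Aars at 161 ± 18.6 and 127 ± 5.13 FPKM and Cars at 59.7 ± 6.89 and 47.9 ± 2.40 FPKM, for alanine and cysteine, were also lower, and the groups of these 4 genes did not overlap. The others that passed, named after their values were seen, were Gars (lower), Qars and Rars (higher). Nars, which charges asparagine, was at 126 ± 5.37 and 131 ± 5.45 FPKM (limma adjusted p = 0.503). Of 16 tested mitochondrial synthetases 2 were lower and 0 higher. Of these Aars2 was at 5.84 ± 0.241 and 4.59 ± 0.410 FPKM, and Ears2, named after its values were seen, was just inside the threshold (limma adjusted p = 0.0495). The count was 1 in most alternatives, among them those without FL library 1, 2 or 3 or KO library 1, 3, 4 or 5.

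Of 15 tested carriers of serine and other amino acids, 3 were lower and 1 was higher. None was higher without FL library 4 or 5 or KO library 1, 4 or 5, and 2 were without FL library 2 or KO library 2. Across all alternatives the number of higher carriers ran from 0 to 3. Slc7a5 was also lower and Slc7a11, the cystine carrier, was the higher one, both named after their values were seen. Slc1a4, which carries serine across the plasma membrane, was at 23.8 ± 1.35 FPKM in FL against 20.3 ± 1.30 FPKM in KO (log2 fold change −0.22, limma adjusted p = 0.0157). Sfxn2, a sideroflexin, was at 9.43 ± 0.442 and 8.11 ± 0.494 FPKM. Its call was lost under several alternatives, among them median-ratio, upper-quartile and same-sum rescaling (highest limma adjusted p of any alternative 0.0679). Sfxn1, the mitochondrial serine transporter, was at 45.6 ± 3.07 and 45.9 ± 2.70 FPKM (limma adjusted p = 0.911). Of 6 tested genes of sphingolipid and phosphatidylserine synthesis, the pathways that build serine into lipids, 0 passed in either direction in limma and 2 had an unadjusted p under 0.05. Without KO library 2 and under each of the 4 rescalings, 1 was higher.

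Atf4, the transcript of ATF4, was at 462 ± 15.5 FPKM in FL against 448 ± 14.4 FPKM in KO (log2 fold change −0.04, limma adjusted p = 0.496), a value whose sign turned under all 4 rescalings. Of 20 tested genes on the list of Atf4 and its targets beyond the 10 enzymes, 5 were lower and 3 higher. Higher were Ddit3, which encodes CHOP, from 336 to 456 FPKM in FL against 584 to 720 FPKM in KO, Ppp1r15a, a phosphatase subunit that reverses the block on translation, at 37.7 ± 3.07 and 51.2 ± 1.36 FPKM, and the stress-induced secreted factor Gdf15, at 19.5 ± 2.63 and 33.8 ± 7.39 FPKM (SD, n = 5). Lower were Vegfa, at 262 ± 16.5 and 198 ± 16.9 FPKM, and, named after their values were seen, Atf5, Chac1, Cebpg and Vldlr with log2 fold changes from −0.37 to −0.28. The groups did not overlap in any of the 8 that passed.

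Of 12 tested genes of cycling cells, which need thymidylate and purines, 1 was higher, the replication helicase subunit Mcm2 at 9.91 ± 1.33 FPKM in FL against 14.1 ± 1.03 FPKM in KO. Without FL library 1 or KO library 3 or 5, 2 were higher. The number higher ran from 0 to 3 across all alternatives.

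**Figure D4:**
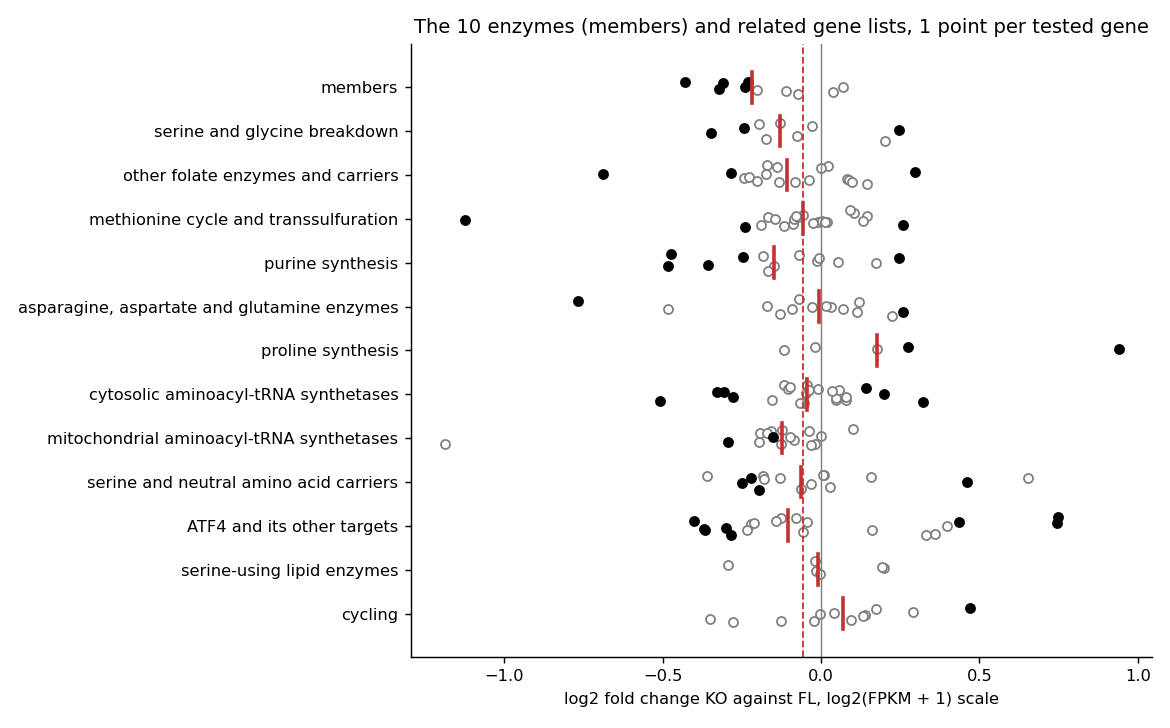
Log2 fold change of KO against FL for every tested gene of the 10 enzymes (members) and of the related lists, on the log2(FPKM + 1) scale; filled points passed an adjusted p of 0.05, red bars are the medians of the lists and the dashed line is the median of all tested genes. Among the lists drawn, the median of the 10 enzymes (−0.22) lies furthest to the left, and proline synthesis (0.18) furthest to the right. Lists of cell type markers are not drawn. Medians further left were those of β cell (−0.50), acinar (−0.33) and α cell markers (−0.28). Further right were those of stellate and fibroblast (0.48), endothelial (0.34) and macrophage markers (0.26).

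**Figure D5:**
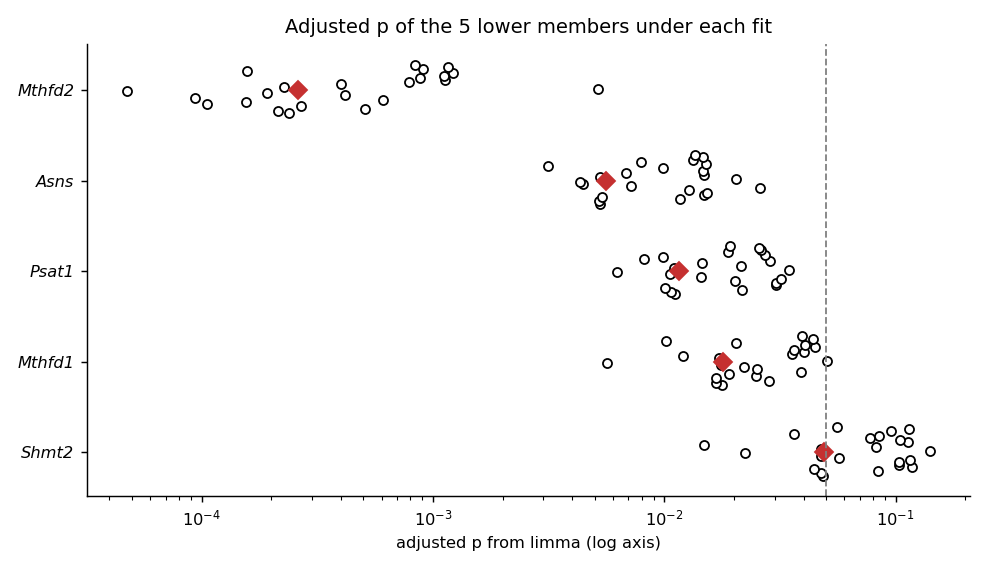
Adjusted p from limma (log axis) of the 5 lower enzymes in the reported fit (red diamonds) and under each alternative fit (open circles), with the threshold of 0.05 dashed. Mthfd2, Asns and Psat1 stay left of the line, Mthfd1 crosses it once (0.0505), and Shmt2 lies on both sides.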

How the data were processed

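Polyadenylated RNA of 10 islet libraries was sequenced by the authors (stranded TruSeq libraries, single reads of 75 nt). The deposited values are FPKM per gene, computed by the authors; the submitters' processing notes list STAR 2.5.2a, Cuffnorm 2.2.1 and mm10/GRCm38. FPKM hold no read counts, so the depth is unknown and no counting error was computed; FPKM sums were 646233 to 675470 in FL and 627084 to 653292 in KO. No 2 libraries were identical, and 22548 of 47340 genes are at 0 in all.

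The KO libraries were set against the FL libraries on log2(FPKM + 1), a scale that understates changes of low genes, using limma 3.58.1 under R 4.3.3 (lmFit, eBayes with a trend). The 13065 genes that averaged 1 FPKM or more in either group were tested, and p-values were adjusted over all of them (Benjamini-Hochberg). The threshold for a call was an adjusted p of 0.05. Over all genes 1183 were higher and 2150 lower; with median-ratio rescaling these were 1622 and 1517, with upper-quartile 1534 and 1646, with the same sum (TPM) 1386 and 1528, and with quantile normalization 1494 and 1708. Each enzyme alone was put through an exact permutation test over libraries (two-sided), whose smallest p is 0.00794. The procedure was tested on simulated data. Python 3.11.15, pandas 2.3.3 and matplotlib 3.10.9 were used for summaries. Coordinates are from GENCODE M21 (GRCm38).

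The 10 enzymes and the lists were chosen with earlier results of these data known. All 10 are named, with Fitm2, set partner genes, and up to 4 called genes per list with the largest change among those whose groups do not overlap; genes named outside this rule are marked, other called genes enter the counts without a name, and 1 gene that the rule covers is not reported here. Alternatives were other pseudocounts (0.1, 0.01), no filter or one of 5 FPKM, 4 rescalings, limma without a trend, robust or with sample weights, the replicate number as a block, stricter thresholds, and leaving out each library or genes listed at 0 in a group.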

Additional observations from a re-analysis of the deposited data

Results flagged for a closer look

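Among the 10 enzymes, 0 of 20 groups had a library that stood apart from the other 4 by the gap of Dixon's test (gap over range above 0.71). Among the 57 genes named by the rule, 7 of 114 groups did, where chance gives about 5.7. FL library 4 was high in 4 of them. Mthfd2l was at 9.58 FPKM there and at 6.01 to 6.97 FPKM in the other FL libraries (gap over range 0.732), Ppat at 20.2 against 17.6 to 18.2 FPKM (0.772), Asnsd1 at 44.4 against 36.2 to 38.4 FPKM (0.736), and Lyz2 at 35.2 against 22.5 to 24.4 FPKM (0.847). FL library 2 was high in Gldc, at 0.3003 against 0.0595 to 0.127 FPKM (0.719). KO library 2 was high in Mpst, at 14.9 against 12.8 to 13.2 FPKM (0.813), and in Glul, at 487 against 379 to 400.4 FPKM (0.804).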

How the results depend on the processing

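Mthfd2, Asns and Psat1 stayed lower in KO and within an adjusted p of 0.05 (limma) in every alternative fit, with log2 fold changes from −0.46 to −0.36, −0.36 to −0.24 and −0.35 to −0.24. The adjusted p ran from 4.77e-05 to 0.00517 for Mthfd2, from 0.00314 to 0.0259 for Asns, from 0.00627 to 0.0347 for Psat1, from 0.00567 to 0.0505 for Mthfd1 and from 0.0149 to 0.141 for Shmt2. At an adjusted p of at most 0.01, 2 of the 10 enzymes were lower, beside 622 higher and 1044 lower genes in all. If a 1.5-fold change was also required, 0 were, beside 349 higher and 290 lower genes. When each library was left out in turn, 4 to 5 enzymes were lower and 0 higher, and over all genes 936 to 1130 were higher and 1589 to 2367 lower. The replicate numbers showed no sign of pairing the libraries (correlations of same-numbered deviations from −0.102 to 0.003). With 5 libraries per group, these correlations cannot exclude a shared litter or processing day. With the replicate number as a block, 3 enzymes were lower, beside 874 higher and 1494 lower genes; Mthfd1 (0.0505) and Shmt2 (0.141) were then not called by limma. Signs turned only in values that passed no test. With sample weights the log2 fold change of Phgdh was −0.0247 and that of Shmt1 0.0184. With a replicate left out, that of Phgdh ran from −0.00411 (without KO replicate 2) to 0.0794, that of Aldh1l1 from −0.0324 (without FL replicate 5) to 0.247, that of Psph from −0.207 (without FL replicate 2) to −0.0403 (without FL replicate 1), that of Mthfd1l from 0.0176 (without KO replicate 3) to 0.117 (without KO replicate 1), that of Aldh1l2 from −0.118 (without KO replicate 3) to −0.0358 (without KO replicate 1), that of Shmt1 from −0.330 (without FL replicate 5) to −0.0331 (without FL replicate 1), and that of Sfxn1 from −0.0164 (below 0 without FL replicate 1, 2 or 5 or KO replicate 3) to 0.0491. The Atf4 log2 fold change was 0.0162 with median-ratio, 0.00616 with upper-quartile and 0.000389 with same-sum (TPM) rescaling, and 0.0216 with quantile normalization. The cause of these moves was not tested. FPKM without read counts limit what can be said of genes near 1 FPKM such as Shmt1.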
